A study of Mus musculus with 12 samples.

Results

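A set of 10 genes of growth hormone signalling and its liver targets were followed on 12 arrays of mouse liver RNA. The genes were Ghr, Stat5b, Igf1, Igfals, Socs2, Cish, Bcl6, Elovl3, Slco1a1 and Hsd3b5. Every probe set that the platform annotation assigns to 1 of these symbols was taken, which gave 18 probe sets out of 22626 tested. The mice were 6-week-old males carrying an inducible transgene for human alpha1-antitrypsin that is active in hepatocytes. M mice carried the wild-type protein and Z mice the mutant, which is retained in the endoplasmic reticulum. The M off (M1) and Z off (Z1) groups drank water with doxycycline at 40 µg/mL until they were killed, having been exposed since conception, and this keeps the transgene off. The M on (M4) and Z on (Z4) groups had no doxycycline. Each group held 3 arrays that the labels name biological replicates. Expression and lack of doxycycline cannot be told apart in this design, and neither can the Z protein and the line that carries it. The labels do not name the promoter that drives the transgene.

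Growth hormone from the pituitary binds its receptor on hepatocytes, and the kinase JAK2 then phosphorylates STAT5B, which enters the nucleus and switches on target genes. Igf1 and Igfals, which encode a growth factor and the subunit that stabilises it in blood, are such targets, and so are Socs2 and Cish, which act back on the receptor. Male rodents secrete the hormone in pulses, and this pattern sustains male-typical liver genes such as Elovl3, Slco1a1 and Hsd3b5. BCL6 is a transcriptional repressor that recognises DNA sites resembling those of STAT5.

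STAT5 proteins bind the spaced palindrome TTCNNNGAA, which reads the same on both strands. It was searched in the RefSeq promoter windows of GRCm38.p6, each 250 bases before and 50 after a gene's start. A window was held for 8 of the 10 genes (13 windows), and Socs2 and Elovl3 had none in the table. The palindrome was in 5 of the 13 windows, belonging to 3 genes, and in 8.3% of all 32851 windows. The stretches that hold it are shown because they place the letters STAT5 reads beside the genes measured below. They are 5′ to 3′ on the gene's strand, and the 6 fixed letters of each match are in capitals.
Cish, chr9:107296659-107296678, plus strand: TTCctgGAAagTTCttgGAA
Igfals, chr17:24878163-24878191, plus strand: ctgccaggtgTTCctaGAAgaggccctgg
Igfals, chr17:24877598-24877626, plus strand: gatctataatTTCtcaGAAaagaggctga
Bcl6, chr16:23981363-23981451, minus strand: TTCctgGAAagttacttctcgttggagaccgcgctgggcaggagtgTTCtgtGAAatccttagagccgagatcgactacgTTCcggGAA
Bcl6, chr16:23988952-23988980, minus strand: agcaaattagTTCtcaGAAttccagaggc
The Cish window held 2 matches side by side, from base 1 to base 20 after the annotated start. One of the 2 Bcl6 windows held 3 matches, the first beginning 168 bases before the start and the last ending 80 bases before it. Windows with 2 or more matches made up 0.457% of all windows. Igfals had 1 match in each of 2 windows, at 58 and 236 bases before the respective start. None was found in these windows of Ghr, Stat5b, Igf1, Slco1a1 or Hsd3b5.

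The tissue label fitted the arrays. All 6 hepatocyte markers had their mean above the median of all probe sets. All 4 cholangiocyte, all 4 skeletal muscle and all 3 measured neutrophil markers lay below it. So did 3 of 4 measured lymphocyte markers and 1 of 2 measured exocrine pancreas markers. The summed skeletal muscle signal was 65 to 387 in M off and 33.1 to 48.3 in M on. It was 80.3 to 129.1 in Z off and 27 to 78.2 in Z on. Array medians ran from 38.8 to 47.2 signal units, and the beta-actin 3′ to 5′ control ratio from 2.18 to 5.16. That ratio was 2.18 to 2.53 in Z off, 2.44 to 5.16 in Z on, 2.72 to 3.89 in M off and 3.09 to 4.38 in M on, so the Z off arrays lay below both M groups. The summed signal of 6 stellate cell markers was 1646 to 1893 in Z off and 1015 to 1323 in Z on. In M off and M on the ranges were 1765 to 1904 and 1064 to 1615 for these markers. The sums rest mainly on Dcn, Col3a1 and Reln, the brightest of the 6. In Z mice the dim Des, Lrat and Col1a1 averaged 25.6, 11.1 and 36.3 off and 28.1, 11 and 35 on. Of 2 measured erythroid markers, Alas2 read 1278 ± 169 in Z off, 175 ± 37.2 in Z on, 274 ± 28.3 in M off and 246 ± 12.9 in M on (n = 3 each). The other, Hba-a1, was dim and did not share that order, at 18.2 ± 16.8 in Z off and 24.5 ± 13.9 in Z on. The part of these differences in the results below was not tested. In whole liver RNA, fewer cells of a type and less RNA per cell cannot be told apart.

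The receptor gene Ghr and the transducer gene Stat5b gave no call in any comparison. The brightest of 3 Ghr probe sets read 4281.8, 4494.2 and 4316.8 in M off and 3828, 2909.1 and 4913.8 in M on. It read 3905.7, 4413.4 and 4817.7 in Z off and 5828.6, 4468.1 and 3581.7 in Z on. The groups overlapped, and the spread within both expressing groups was wider than any difference of means. The log2 difference was 0.06 for Z on minus Z off (95% interval -0.48 to 0.59) and -0.20 for M on minus M off (-0.74 to 0.34). The dimmest Ghr probe set read higher in Z off (422 ± 85.3) than in M off (293 ± 21.4, mean ± SD, n = 3 each) and those groups did not overlap, but the difference was not called (limma, adjusted p = 0.681).

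The brighter of 2 Stat5b probe sets read 180.2, 254.4 and 179.8 in Z off and 156.9, 94.3 and 200.4 in Z on. The M off arrays gave 162.4, 145 and 185.3 and the M on arrays 176.1, 202.2 and 192.8. Its log2 difference was -0.49 in Z mice (95% interval -1.11 to 0.13) and 0.22 in M mice (-0.40 to 0.84), and the difference between these responses was -0.71 (limma, adjusted p = 0.933). Without Z on replicate 2 these were -0.19 for the Z mice and -0.41 for the difference, and without Z off replicate 2 the Z value was -0.33. The dimmer probe set gave 96.6, 94.7 and 59.2 in Z off and 27.4, 46.1 and 32.3 in Z on, so these 3 arrays each lay apart from the other 3. Its log2 difference was -1.24 (SE 0.40, limma adjusted p = 0.671) and ran from -1.47 to -0.64 over the alternatives. In M mice the dimmer probe set read 83.6, 67.2 and 37.3 off and 49.6, 48.1 and 24.2 on. Averaged over both lines it was lower by 0.93 on the log2 scale in expressing livers (a log2 difference of -0.93, limma adjusted p = 0.631). That average ran from -1.10 to -0.47 over the alternatives. The brighter probe set did not share the sign in M mice.

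**Figure D1:**
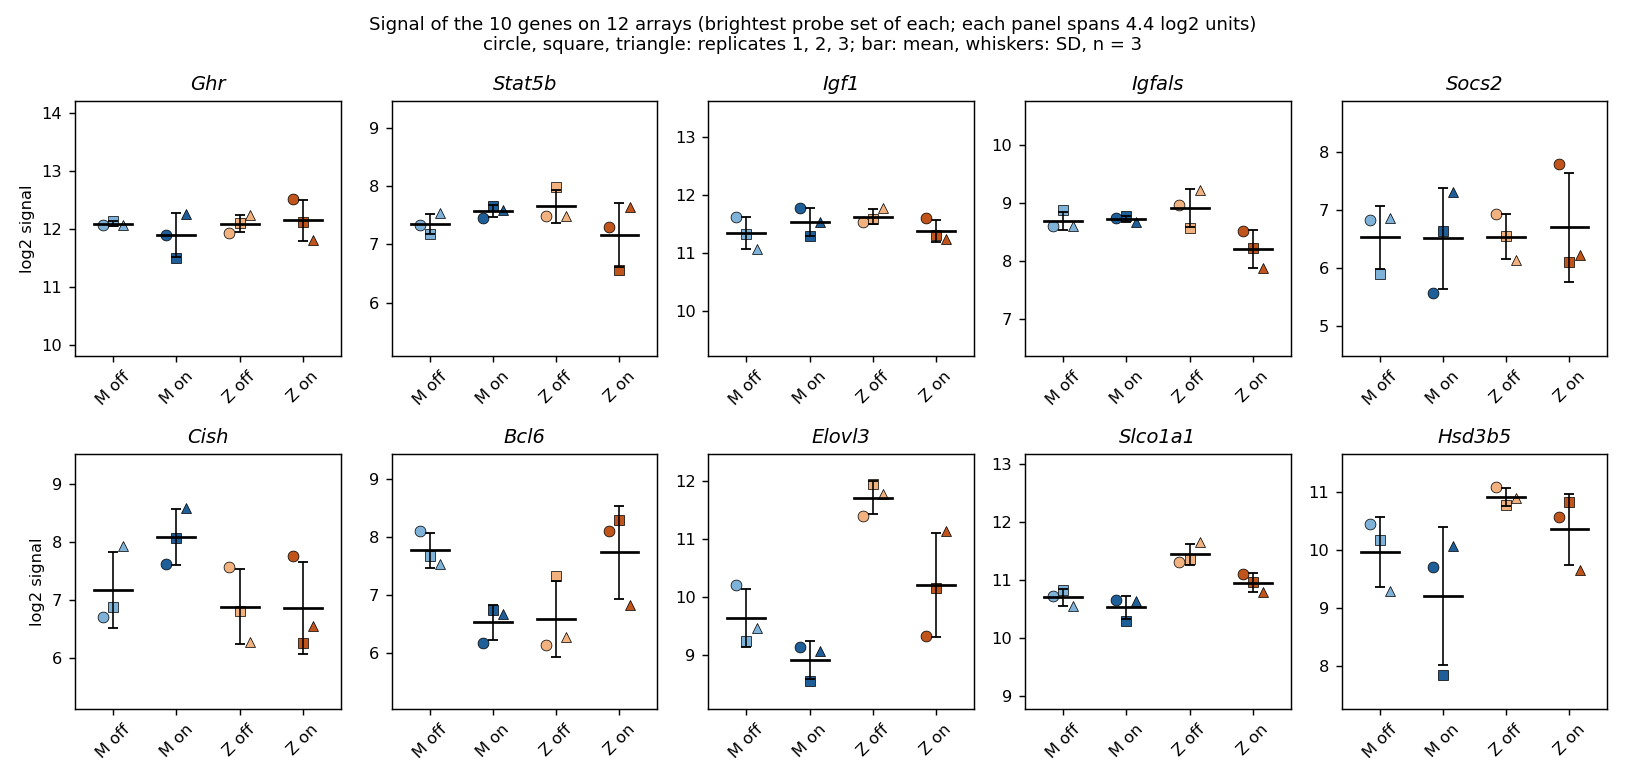
Log2 signal of the brightest probe set of each gene (vertical axis) on every array, by group (horizontal axis); bars are means and whiskers SDs of 3 arrays. Elovl3, Slco1a1 and Hsd3b5 stand highest in Z off and lowest in M on, and Bcl6 is high in M off and in 2 of the 3 Z on arrays.

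Of the circulating IGF genes, Igf1 overlapped between all groups on its brightest probe set and Igfals read lowest in Z on. The brightest Igf1 probe set gave 3145.2, 2553.4 and 2144.6 in M off and 3500.7, 2494.6 and 2939.3 in M on. It gave 2949.3, 3045.6 and 3476.9 in Z off and 3080.5, 2523.4 and 2396.4 in Z on. The log2 differences were -0.25 in Z mice (95% interval -0.72 to 0.22) and 0.19 in M mice (-0.28 to 0.66). The 3 Igf1 probe sets did not share a sign in either, and Z off against M off differed by 0.29 for the brightest (limma, adjusted p = 0.798). The difference between the responses of the lines was -0.44 (-1.10 to 0.22).

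Igfals encodes the acid-labile subunit that holds IGF-1 and its binding protein in a ternary blood complex. Its signals were 497.8, 380.5 and 597.1 in Z off and 366.4, 297.1 and 233.9 in Z on. M off gave 389, 467.5 and 387.4, and M on gave 425.4, 439.2 and 409. All 3 Z on arrays therefore lay below the other 9. Z on was 1.64-fold lower than Z off, a log2 difference of -0.72 (SE 0.23) that was not called (limma, adjusted p = 0.671). The log2 difference was -0.53 against M on (adjusted p = 0.713) and 0.04 between M on and M off (95% interval -0.46 to 0.54). The test of the difference between lines gave -0.76 (SE 0.32, limma adjusted p = 0.933). Over both lines, on minus off was -0.34 (limma, adjusted p = 0.844). The lowest Igfals array, Z on replicate 3, read 6737.2 for the acute phase gene Saa1, against 532 and 441.9 on the other two Z on arrays. Without that array the Z on minus Z off difference was -0.55.

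Both genes of receptor feedback varied within groups by as much as between them. The brighter Socs2 probe set read 113.2, 59.7 and 117.1 in M off and 47.8, 100 and 159.1 in M on. It read 122.2, 93.8 and 70.8 in Z off and 221.1, 69 and 74.7 in Z on. Log2 differences were 0.16 in Z mice (95% interval -1.07 to 1.40) and -0.02 in M mice (-1.26 to 1.22), with signs that turned when single arrays were left out or the probe sets were averaged. These intervals leave room for changes of over 1 log2 unit either way. The dimmer Socs2 probe set ranged from 22.7 to 145.3, and its 3 Z on values of 90.8, 36.1 and 22.7 included the lowest 2 of all arrays.

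Cish, whose annotated start carries the paired palindromes shown above, read 105.2, 117.8 and 244.8 in M off and 197.7, 268 and 384.1 in M on. It read 189.8, 113 and 77.5 in Z off and 218.1, 76.8 and 94.6 in Z on. The M on mean of 283 ± 94.1 was the highest of the groups, 2.34-fold above the Z on mean on the log2 scale. That difference (Z on minus M on, log2 -1.23, SE 0.50) was not called (limma, adjusted p = 0.701), and the arrays overlapped. M on minus M off was 0.92 (95% interval -0.21 to 2.04) and Z on minus Z off was -0.02 (-1.15 to 1.11), a sign that also turned when arrays were centred on their medians. Averaged over states, Cish read lower in Z than in M mice by a log2 difference of -0.76 (limma, adjusted p = 0.579).

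Bcl6 read lower with expression in M mice and higher with it in Z mice, and neither difference was called. Its brighter probe set read 275.5, 204.1 and 185.5 in M off and 72.6, 106.9 and 102 in M on, so the M groups lay apart. In Z mice it read 71, 161.8 and 77.4 off and 274, 315.9 and 113.3 on, and Z on replicate 3 fell among the Z off values. The log2 difference was -1.24 in M mice (SE 0.44, limma adjusted p = 0.871) and 1.15 in Z mice (SE 0.44, adjusted p = 0.743). The difference between these responses was 2.39 (SE 0.62, unadjusted p = 0.00316 in limma) and did not pass over all probe sets (limma, adjusted p = 0.713). It ran from 1.77 to 2.85 over the alternatives. In the off state Z read below M by -1.18, and in the on state above it by 1.21 (limma, adjusted p = 0.578 and 0.61). The off state difference was -0.47 when both probe sets were averaged. On the dimmer probe set alone it had the other sign, at 0.25 (95% interval -0.60 to 1.09), and those groups overlapped.

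The dimmer Bcl6 probe set shared only part of this pattern. It read 97.5, 64.4 and 33.2 in M off, and 24.3, 20 and 24.5 in M on. In Z mice it read 81.7, 86.4 and 49.4 off and 80.5, 98.3 and 68.6 on. Here M on stood below every other array, and Z on and Z off overlapped. The log2 differences were -1.38 for M on minus M off (limma, adjusted p = 0.703), 0.21 for Z on minus Z off (95% interval -0.63 to 1.06) and 1.84 for Z on minus M on (SE 0.38, limma adjusted p = 0.29). The difference of responses was 1.59 (limma, adjusted p = 0.933) and the line difference over both states 1.04 (adjusted p = 0.28). The brighter probe set did not share that line difference, at 0.01 over both states (95% interval -0.67 to 0.70). The sizes on the dimmer probe set depended on the processing. Over the alternatives, M on minus M off ran from -1.8 to -0.62 and Z on minus M on from 0.86 to 1.96. The difference of responses ran from 0.74 to 2.01 and the line difference from 0.49 to 1.22, so the signs held.

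**Figure D2:**
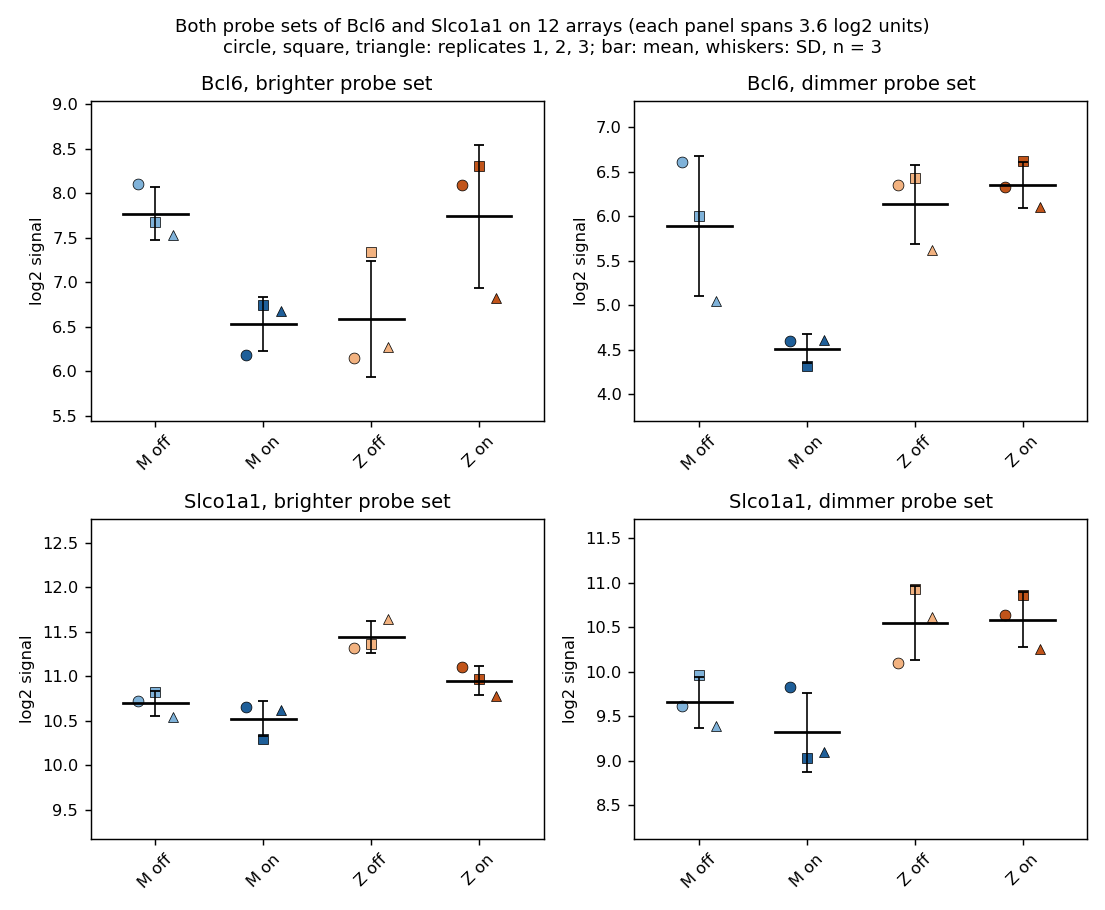
Log2 signal (vertical axis) of both probe sets of Bcl6 and of Slco1a1 by group (horizontal axis), 1 point per array, with mean and SD of 3 arrays. Low Bcl6 in M on appears on both probe sets while higher signals in Z on than in Z off appear on the brighter one, and on the dimmer Slco1a1 probe set all 6 Z arrays lie above all 6 M arrays.

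Elovl3, a fatty acid elongase of male mouse liver, had the widest range of group means of the 10 genes, 2.79 on the log2 scale. The signals were 2698.6, 3953 and 3518.7 in Z off and 643.4, 1141.6 and 2241.5 in Z on. In M mice it read 1177.6, 606.1 and 705.4 off and 565, 373.5 and 535.1 on. The Z off arrays were the 3 highest and the M on arrays the 3 lowest of all 12. Z off was 4.21-fold above M off (log2 difference 2.07, SE 0.44, limma adjusted p = 0.258) and Z on 2.44-fold above M on (1.29, adjusted p = 0.591). Expressing livers read lower within both lines, by -1.50 in Z mice (limma, adjusted p = 0.671) and by -0.72 in M mice (95% interval -1.69 to 0.25; -0.44 without M off replicate 1), with the groups of each pair apart. The difference of these responses was -0.78 (-2.16 to 0.59; -1.25 without Z on replicate 3 and -0.35 without Z on replicate 1), and over both lines on minus off was -1.11 (limma, adjusted p = 0.588).

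Over both states Elovl3 was 3.21-fold higher in Z mice (log2 1.68, 95% interval 0.99 to 2.37, limma adjusted p = 0.118), which was not called. When limma was run with a variance trend over intensity and robust shrinkage it was called (adjusted p = 0.0129), as it was with only the brighter probe sets (adjusted p = 0.0184) or with 16 or 50 added to every signal (adjusted p = 0.0398 and 0.0229). Z off against M off was called with the trend (limma, adjusted p = 0.0403).

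Arrays high in Elovl3 were low in Dbp, a transcription factor gene whose level swings over the day. The 4 arrays highest in Elovl3, from 2241.5 to 3953, were the 3 of Z off and Z on replicate 3, and they had Dbp signals of 23.8 to 107.1. On the other 8 arrays Elovl3 lay between 373.5 and 1177.6 and Dbp between 838.7 and 1555.9. The clock gene Arntl read 80.8 to 178.7 on those 4 arrays and 4 to 46.5 on the other 8. Nr1d1, also a clock gene, did not part them, at 55.1 to 182.1 and 55.2 to 143.8. Without Z on replicate 3 the Z on minus Z off difference of Elovl3 was -1.97 (limma, adjusted p = 0.231) and Z on minus M on was 0.83. The times at which livers were taken are not in the labels, and the part of the clock genes in the Elovl3 differences was not tested.

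**Figure D3:**
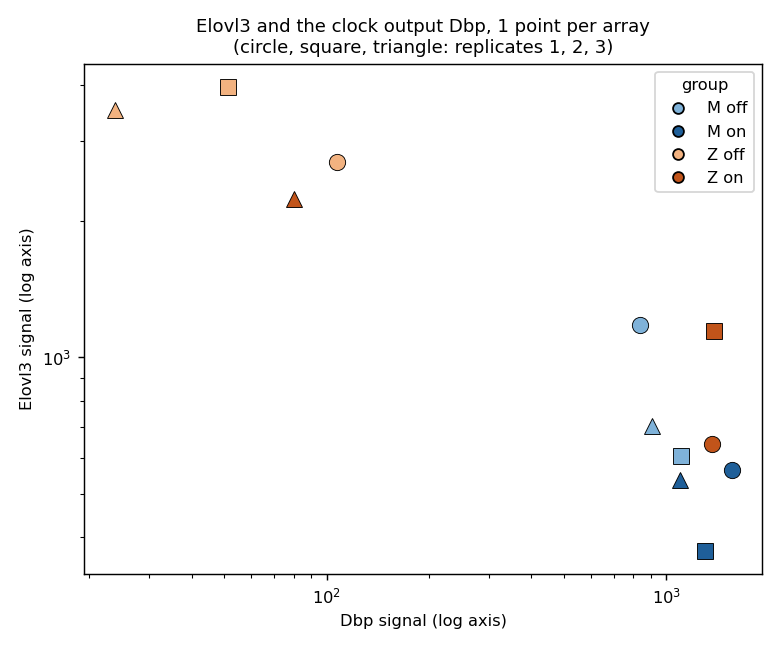
Elovl3 signal (vertical log axis) against Dbp signal (horizontal log axis), 1 point per array, coloured by group and shaped by replicate. The 3 Z off arrays and Z on replicate 3 sit at Dbp signals of 23.8 to 107.1 and Elovl3 signals of at least 2241.5, apart from the other 8.

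Slco1a1, which encodes a male-predominant organic anion transporter of hepatocytes, stood higher in Z than in M mice in both states. The brighter probe set gave 2545.9, 2638.2 and 3212.4 in Z off and 2203.4, 2001.8 and 1760.5 in Z on. M off gave 1694.6, 1812 and 1490, and M on gave 1613.3, 1258.2 and 1581.1. Each Z group lay above the M group of its state. The log2 difference was 0.75 in the off state (SE 0.19, limma adjusted p = 0.352) and 0.42 in the on state (adjusted p = 0.726). Z on was lower than Z off by -0.49 (SE 0.19, limma adjusted p = 0.743), while M on minus M off was -0.17 (95% interval -0.58 to 0.24) and on minus off over both lines -0.33.

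The dimmer Slco1a1 probe set gave 1094.9, 1942.3 and 1565.2 in Z off and 1597.6, 1860.1 and 1218.1 in Z on, against 784.5, 994.9 and 671.5 in M off and 907, 524.6 and 546 in M on. On it the 6 Z arrays lay above the 6 M arrays, a separation in that direction seen on 0.38% of probe sets (0.924% in either direction), and Z on did not read below Z off. Its log2 line difference was 0.89 off (limma, adjusted p = 0.549), 1.27 on (adjusted p = 0.427) and 1.08 over both states (SE 0.22, adjusted p = 0.149). The brighter probe set gave 0.59 over both states (SE 0.13, limma adjusted p = 0.209). With the trend and robust variances in limma both were called (adjusted p = 0.00777 and 0.0163), with only probe sets above the median level too (0.0275 and 0.0469), and with 50 added to every signal (0.0293 and 0.0278). In the off state the brighter one was called with the trend (limma, adjusted p = 0.0447).

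Hsd3b5, a male-specific steroid-metabolising enzyme of mouse liver, had the same order of groups with wider scatter. It read 2151.5, 1740.5 and 1898.3 in Z off and 1518.1, 1807.2 and 804.1 in Z on. It read 1391.1, 1149.3 and 623.1 in M off and 834.2, 228.3 and 1064.6 in M on. Z off lay above M off with no overlap (log2 difference 0.95, SE 0.56, limma adjusted p = 0.741), and Z on and M on overlapped (1.15, adjusted p = 0.77). Expressing minus silent was -0.56 in Z mice (95% interval -1.83 to 0.70) and -0.77 in M mice (-2.03 to 0.50). Over both states Z was 2.07-fold above M (log2 1.05, SE 0.40, limma adjusted p = 0.469). The low M on replicate 2 carried part of this: without it, Z on minus M on was 0.47, the difference over both states was 0.71 and M on minus M off was -0.08. Without M on replicate 3 the last was -1.19. Z on minus Z off was -0.22 without Z on replicate 3, and Z off minus M off was 0.60 without M off replicate 3.

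None of the 10 genes, each taken by its brightest probe set, was called in any of 7 comparisons at an adjusted p under 0.05 in limma. Few probe sets of the whole array were: 0.0133% in Z on minus Z off, 0% in M on minus M off and in the difference of responses, 0.00884% in Z on minus M on and in on minus off over both lines, 0.0707% in Z off minus M off, and 0.0884% in Z minus M over both states. At an unadjusted p under 0.05 in limma, the genes that passed were 4 in Z on minus Z off (6.29% of all probe sets), 3 of them lower (3.59%), and 1 in M on minus M off (5.18%), which was lower (2.42%). They were 2 in the difference of responses (5.18%), 5 in Z on minus M on (6.85%), 3 in Z off minus M off (7.73%), 3 in Z minus M over both states (9.09%), all higher (5.19%), and 2 in on minus off over both lines (5.84%), both lower (3.02%). In the first of these Bcl6 was higher and Igfals, Elovl3 and Slco1a1 lower.

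Groups lay apart in Z on minus Z off for 3 of the 10 genes, all lower, against 11.8% of all probe sets in either direction and 6.61% lower. They lay apart in M on minus M off for 2 genes, both lower (10.5%, and 5.32% lower), in Z on minus M on for 4 (12.1%) and in Z off minus M off for 4 (15.1%). The median log2 difference of the 10 genes was -0.37 in Z on minus Z off and -0.09 in M on minus M off, beside -0.03 and -0.01 over all probe sets. It was 0.26 in Z off minus M off and 0.23 in Z on minus M on, beside 0.03 and 0.00 over all. Comparisons that name the same group share its 3 arrays, so their values are not independent of each other.

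**Figure D4:**
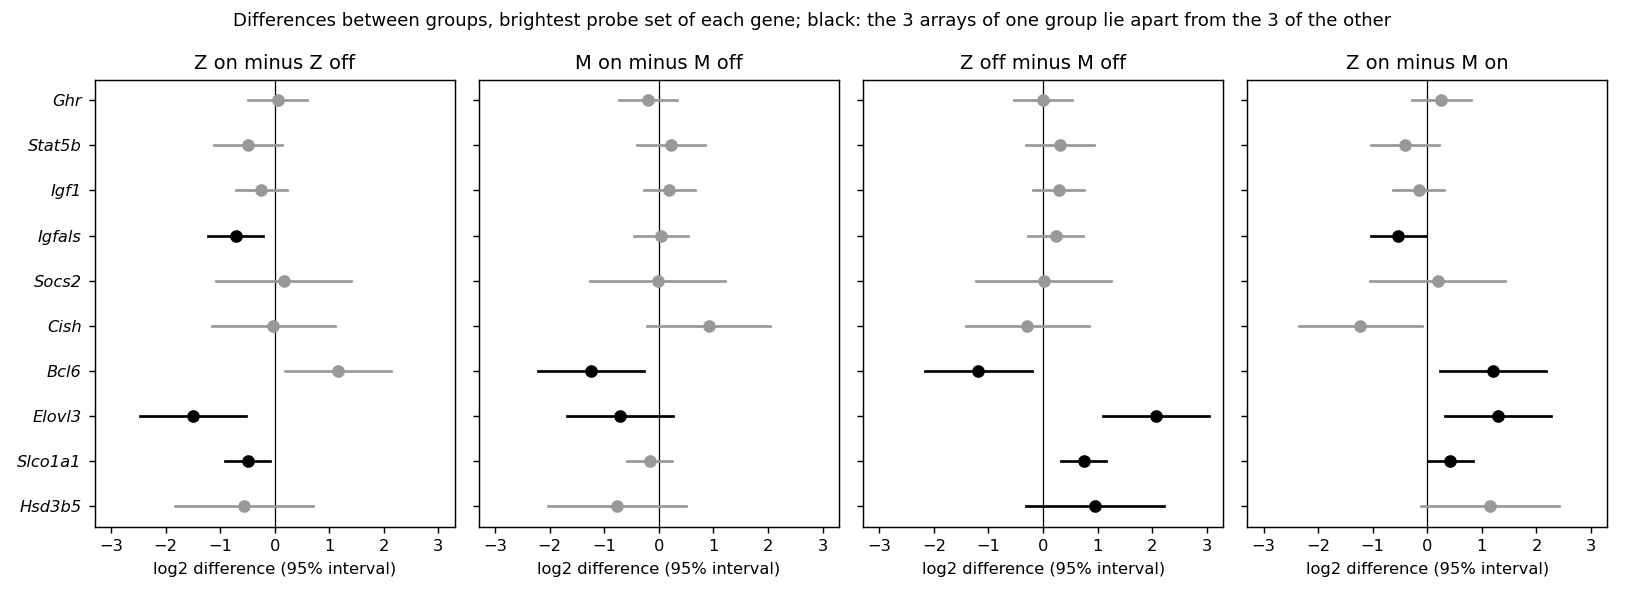
Log2 differences (horizontal axis, points) with 95% intervals (lines) of the 10 genes in 4 comparisons, from the brightest probe set of each; black marks groups of 3 arrays that lie apart. Elovl3 lies at -1.50 in Z on minus Z off and at 2.07 in Z off minus M off, and Bcl6 changes side between Z and M mice.

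Around these genes, 26 of 29 listed genes of growth hormone signalling and the IGF axis had a probe set, and none was called in the 7 comparisons. At an unadjusted p under 0.05 in limma, 1 of the 26 was lower in Z on minus Z off (3.59% of all probe sets) and 1 lower in M on minus M off (2.42%), both near the share over all probe sets. The first was Egfr, a growth factor receptor of hepatocytes, at 1246 ± 16.6 in Z off and 882 ± 18 in Z on (n = 3 each, log2 -0.50). In M mice Egfr read 1025 ± 277 off and 892 ± 34.5 on (log2 -0.16). The other was Igfbp1, an IGF binding protein repressed by insulin, at 334 ± 181 in M off and 38.1 ± 18.9 in M on (log2 -3.15, limma unadjusted p = 3.08e-04). Igfbp1 in the Z off arrays averaged 256 ± 113, against 145 ± 58 in Z on, a smaller gap, with a log2 difference of responses of 2.35 (unadjusted p = 0.0169 in limma). Stat5a, the close relative of Stat5b, read lower on expression in both lines, by -0.50 and -0.44 on the log2 scale in Z and M mice. Igfbp3, the main IGF carrier, read lower in Z on (52.6 ± 14.7) than in M on (103 ± 33.6, n = 3 each). Those arrays overlapped (log2 -0.94, limma adjusted p = 0.695), and the off groups read 83.9 ± 42.7 in Z and 113 ± 5.1 in M mice. The feedback gene Socs3 varied from 33.5 to 596 within M off. In on minus off over both lines, 3 of the 26 were lower at an unadjusted p under 0.05 in limma (3.02% of all probe sets). They were Igfbp1 (log2 -1.97), Stat5a (-0.47) and Egfr (-0.33). In Z on minus M on and in Z minus M, 2 were higher and 1 lower (6.85% and 9.09% in either direction). The difference of responses and Z off minus M off each had 1, higher (5.18% and 7.73% in either direction). The list's median was -0.07 in Z on minus Z off and -0.01 in M on minus M off, near those of all probe sets.

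Further male-biased liver genes gave a mixed picture, with 13 of 21 having a probe set and none called. In Z minus M over both states 8 read higher and 5 lower (52.1% of all probe sets read higher), with a median log2 difference of 0.17 beside 0.02 over all probe sets, and 5 were higher at an unadjusted p under 0.05 in limma (5.19% of all probe sets). Cyp7b1, an oxysterol hydroxylase, averaged 2378 ± 306 in Z off, 2194 ± 456 in Z on and, in M mice, 1191 ± 345 off and 672 ± 216 on (n = 3 each). Its log2 line difference was 1.39 (SE 0.22, limma adjusted p = 0.0801). The complement gene C6 differed by 0.78 between the lines. Cyp2d9 and Cyp4a12a, also male-typical, differed by 0.17 and -0.08. Ugt2b38, a glucuronosyltransferase, averaged 932 ± 120 in Z off, against 373 ± 149 in Z on (log2 -1.40). In M mice it averaged 479 ± 104 off and 306 ± 234 on (log2 -0.91), with a difference of responses of -0.48 (limma, adjusted p = 0.963). Cspg5 read higher in Z off than in M off (log2 0.79).

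Of the female-biased genes, 13 of 21 had a probe set, and most were dim in these males. In Z minus M over both states 2 read higher and 11 lower (52.1% of all probe sets read higher), with a median log2 difference of -0.29 beside 0.02 over all, and none was called. At an unadjusted p under 0.05 in limma 1 was higher and 2 were lower, against 9.09% of all probe sets in either direction. Cyp4a14, which also responds to PPAR-alpha, read 40.6 ± 23.6 in M off and 1.9 ± 0.529 in Z off, and 21.5 ± 7.52 and 22.8 ± 14.4 in M on and Z on (n = 3 each). Signals this near the bottom of the scale make its log2 difference of -4.28 between the off groups uncertain in size. Ntrk2, a neurotrophin receptor, went the other way, at 131 ± 10.3 and 137 ± 46.5 in Z off and Z on and 94.8 ± 37.3 and 68.3 ± 12.4 in M off and M on. Fmo2 read 35.7 ± 3.91 in Z off and 63 ± 14.4 in M off. Slc22a27 and Cyp2b13 had group means of at most 24.3 and 18.1 signal units.

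**Figure D5:**
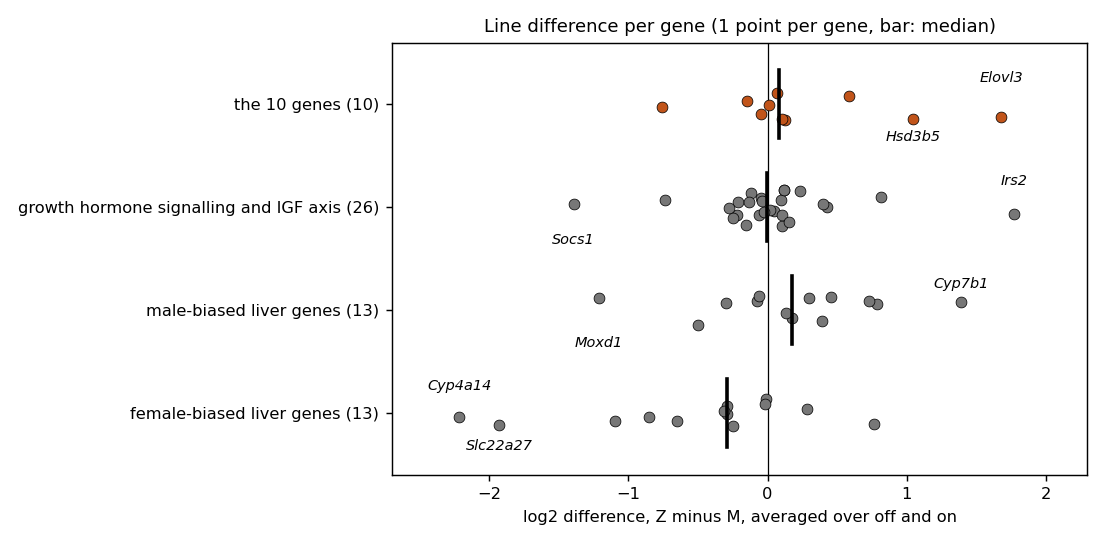
Log2 difference between Z and M mice averaged over the off and on states (horizontal axis), 1 point per gene and a bar at the median, for the 10 genes and 3 lists (vertical axis; genes with a probe set in brackets). Elovl3 at 1.68 and Hsd3b5 at 1.05 are the farthest right of the 10, and 11 of 13 female-biased genes, most of them dim, lie below 0.

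The genes whose signals across the 12 arrays most resembled those of the 3 members with the widest range were picked by Pearson's r among 10374 probe sets, as a description. For Elovl3 these were Ppp1r3c, a glycogen-targeting subunit of protein phosphatase 1 (r = 0.932, Spearman's rho = 0.93), Slc11a2, an iron transporter (r = 0.93), and Caprin1 (r = 0.928). Ppp1r3c read 192 ± 19.5 in Z off, 123 ± 48.1 in Z on, 96.7 ± 10 in M off and 55 ± 14.2 in M on (n = 3 each), the same order of groups as Elovl3. For Hsd3b5 they were Pigr, the receptor that carries polymeric immunoglobulin across epithelia (r = 0.951), Arhgef10 (0.91) and Mapk14 (0.894). For the brighter Bcl6 probe set they were Ap3m1 (0.908), Xpr1 (0.888) and Spop (0.886). All of these values are the highest out of many, so no p is given.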

How the data were processed

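RNA of 12 mouse liver samples was prepared with TRIZOL and a spin column and labelled with biotin for 1-colour arrays, per the labels. Each deposited value is an intensity on a linear scale, given per probe set and array. RMA is named in the submitters' processing notes, yet the values are not on a log scale and their distribution differs between arrays; other steps by the authors are not stated. Of 22690 probe sets, 64 controls were left out. Signals were taken to log2 after 1 value of 0 was set to 0.1, and 28.3% of values lay below 16, where log2 differences are less certain. All 12 arrays entered 1 limma fit with a mean for every group (3.58.1, R 4.3.3; lmFit and eBayes, two-sided), with Benjamini-Hochberg adjustment over 22626 probe sets and a call at an adjusted p under 0.05. Intervals are 95% intervals of that fit. The number of arrays limits the precision. Gene names came from the platform annotation. Where a gene has several probe sets, the one with the highest mean stands for it. Of each other list, called members and up to 2 per comparison with the smallest p are named; Cyp2d9 and Cyp4a12a are named beyond that, after their values were seen. Members and lists were chosen with earlier results of these data known. The fit was also run on simulated data, with independent noise for every probe set and shifts placed only on brighter ones. That run does not cover effects shared by arrays or shifts on dim probe sets.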

Additional observations from a re-analysis of the deposited data

How the results depend on the processing

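No value given for the 10 genes was called in the main analysis. Of 53 such values, 8 changed sign under some alternative and 5, all for Elovl3 and Slco1a1 between the lines, gained a call; these calls are given in the text with their values. The number of member genes called was 0 under the settings tried, except 2 in Z off minus M off with the intensity trend and, in Z minus M over both states, 2 with the trend, with only brighter probe sets and with 50 added, and 1 with 16 added. Signs turned where values were near 0. For Z on minus Z off, Ghr was -0.12 and Socs2 -0.33 with the mean of all probe sets, and Cish was 0.023 with arrays centred on their median. For M on minus M off, with the mean of all probe sets, Stat5b was -0.20, Igf1 -0.045 and Socs2 0.16, and Socs2 was 0.012 with 50 added. Leaving out 1 array at a time gave, for Z on minus Z off, -0.13 to 0.23 for Ghr, -0.38 to 0.46 for Socs2, -0.47 to 0.32 for Cish and -0.043 to 0.36 for the dimmer Bcl6 probe set, and for M on minus M off -0.0071 to 0.13 for Igfals and -0.42 to 0.45 for Socs2. The cause of these changes was not tested.

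Over the whole array, the number of probe sets called was 3 in Z on minus Z off, 0 in M on minus M off (1172 at an unadjusted p under 0.05), 0 in the difference of responses (1172 as well), 2 in Z on minus M on, 16 in Z off minus M off, 20 in Z minus M and 2 in on minus off, all in limma. In this order, the trend with robust variances gave 8, 8, 2, 22, 51, 110 and 17, and only probe sets above the median level 1, 2, 1, 20, 33, 87 and 5. With 50 added the counts were 1, 5, 2, 19, 36, 85 and 5. With 16 added they were 1, 3, 1, 10, 41 in Z minus M and 4 in on minus off, with Z off minus M off within 1.5 times. Quantile normalization gave 2 in M on minus M off and 9 in Z on minus M on. Centring on medians gave 1, 5 and 1 in the first 3 comparisons, and 1 probe set per gene gave 1 in M on minus M off and 2 in the difference of responses. Fitting only the groups of a comparison gave 0 in the comparisons Z on minus Z off, Z off minus M off and Z on minus M on. With a replicate block the counts were 1 in Z on minus Z off, 0 in Z on minus M on and 6 in Z off minus M off. They were 12 in Z minus M and 1 in on minus off, and no member was called. Deviations of same-numbered arrays correlated at -0.0826 to 0.161, with 3 of 18 pairs over 0.1. For different numbers the range was -0.183 to 0.157, with 3 of 36 pairs over 0.1. Pairs of replicate 3 arrays ran from 0.00781 to 0.161. The highest signal of an array was 29061.4 to 37251.7 for replicate 1 and 19894.9 to 22863.3 for replicate 3. The main fit did not take the numbers as pairs, and an effect shared by same-numbered arrays was not tested further. Leaving out 1 array at a time gave 2 to 5, 0 to 2, 0 to 2, 0 to 5, 1 to 6, 7 to 18 and 0 to 5 in the same order of comparisons, so in Z off minus M off every omission lowered the count.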

Other observations

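Single arrays at the ends of the range were shared by several of the 10 genes, taken by their brightest probe sets. M on replicate 2 was the lowest of the 12 arrays for 4 of the 10 genes (Ghr, Elovl3, Slco1a1 and Hsd3b5) and for 6 of the 18 probe sets. Z on replicate 2 was the lowest for 2 genes (Stat5b and Cish). The highest arrays were more spread, with at most 2 of the 10 genes on any one array. How often each array was lowest or highest over all probe sets was not counted, so these counts have no background beside them.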
